A study of Mus musculus with 6 samples.

Results

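Secreted glycoproteins and proteoglycans of the extracellular matrix, other than collagens and laminins, were followed in embryoid bodies (EBs) before and during treatment with retinoic acid (RA). The set was a list of 52 genes chosen by symbol, and a member was measured where the array had a probe set that carried this symbol alone. This held for 50 of the 52 genes, out of 19938 genes measured in all, and Fbn1 and Efemp2 were not analysed here. None of the 50 members had more than 1 such probe set. They comprised 9 small leucine-rich proteoglycans, 4 hyaluronan-binding proteoglycans, 3 tenascins, 5 thrombospondins, 4 genes of fibronectin and other adhesive glycoproteins, 7 elastic fibre and microfibril genes, 4 fibulins, 4 latent TGF-beta binding proteins, 4 matrilins, 2 genes of the SPARC family and 4 other secreted matrix genes.

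EBs, clumps of ES cells in suspension whose cells differentiate into those of the early embryo, were grown from the R1 mouse ES cell line plated at 35000 cells per ml without leukaemia inhibitory factor, the factor that holds ES cells pluripotent. RA, the active form of vitamin A, was given at 2 μM to EBs that were 4 days old. Total RNA was measured on Affymetrix Mouse Gene 1.0 ST arrays, with 2 arrays from EBs at the time of RA addition (day 0, no RA), 2 from EBs treated for 3 days (day 3) and 2 from EBs treated for 4 days (day 4). No untreated EBs of the age of days 3 and 4 were among the arrays, so an effect of RA and one of the further days in culture cannot be told apart. The labels do not say whether the 2 arrays of a day came from separate cultures, and p-values then measure the spread between arrays, which may be technical.

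The extracellular matrix is the secreted scaffold between cells. Fibronectin is the first fibrillar glycoprotein that many embryonic cells lay down, and cells bind it through integrins. Fibrillin microfibrils carry elastin and store growth factors of the TGF-beta family through some of the latent TGF-beta binding proteins. Proteoglycans such as versican fill the space with sulphated sugar chains bound to hyaluronan. Matricellular proteins, among them tenascins, thrombospondins, periostin and SPARC, build little structure and instead modify how cells adhere to the matrix. In embryos much of this matrix is made by mesenchyme and by the parietal and visceral endoderm.

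Values are log2 intensities summarised by Robust Multichip Average (RMA), so that a difference of 1 is 2-fold. They can be compared between days for the same gene but not between genes, and the method understates small changes of dim genes. The array medians lay between 6.69 and 6.85, and the 2 arrays of a day correlated at 0.999 across the 19938 genes. The genes on an array are not independent replicates. The arrays were labelled as embryonic stem cells. Of 8 pluripotency markers, all 8 fell by day 3 and 7 were lower at day 4 than at day 0, and their mean level was between 8.77 and 8.80 on the day 0 arrays and between 6.54 and 6.66 on the day 4 arrays. Only Zfp42 among them was undetectable by the limits that the study set, here an SD under 0.3 and a mean under 6 on the 6 arrays together. Beside this loss, 5 of 8 mesenchyme markers were higher and 3 were lower at day 4 than at day 0, with mean levels of 8.30 to 8.41 at day 0 and 9.33 on both day 4 arrays. Of 9 markers of endoderm, 6 were higher and 1 was lower, of 7 cartilage markers 2 were higher and 1 lower, of 4 smooth muscle markers 1 was higher and 2 lower, of 8 neural markers 3 were higher and 1 lower, and of 5 endothelial markers 3 were higher and 2 lower. Over all genes, 25.9% were higher and 25.6% lower in this comparison. In such bulk samples, fewer cells of a type and less RNA per cell cannot be told apart, and the part of these cell types in the changes of the matrix genes was not tested.

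The promoters of the genes with the largest changes are shown because their levels moved most in the same RNA: Islr, Ecm1 and Postn had the largest rises against day 0, and Bgn and Fbln2 were the genes with the largest falls that had an entry in the RefSeq promoter table (GRCm38.p6). Each line holds the 250 bases before an annotated transcription start, 5′ to 3′ on the strand of the gene. Capitals mark a TATA box (TATAAA), a GC box (GGGCGG), an AP-1 site (TGACTCA) or AGGTCA, the core of many nuclear receptor sites including those of the RA receptors, all searched on both strands. Islr lies at chr9:58158555-58158804 on the minus strand, Ecm1 at chr3:95739570-95739819 on the minus strand, Postn at chr3:54359017-54359266 and, for a second start, at chr3:54360857-54361106 on the plus strand, Bgn at chrX:73483351-73483600 on the plus strand, and Fbln2 at chr6:91212514-91212763 on the plus strand.
Islr: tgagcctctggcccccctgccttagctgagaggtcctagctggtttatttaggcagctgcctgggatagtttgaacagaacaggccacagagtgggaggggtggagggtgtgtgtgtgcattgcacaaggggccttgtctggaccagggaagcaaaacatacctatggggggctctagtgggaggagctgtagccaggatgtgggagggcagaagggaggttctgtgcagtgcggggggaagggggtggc
Ecm1: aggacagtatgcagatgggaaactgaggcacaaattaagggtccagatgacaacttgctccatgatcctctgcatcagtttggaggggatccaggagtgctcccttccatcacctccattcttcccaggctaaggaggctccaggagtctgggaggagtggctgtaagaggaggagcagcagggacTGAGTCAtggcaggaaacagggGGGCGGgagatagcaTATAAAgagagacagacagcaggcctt
Postn, first start: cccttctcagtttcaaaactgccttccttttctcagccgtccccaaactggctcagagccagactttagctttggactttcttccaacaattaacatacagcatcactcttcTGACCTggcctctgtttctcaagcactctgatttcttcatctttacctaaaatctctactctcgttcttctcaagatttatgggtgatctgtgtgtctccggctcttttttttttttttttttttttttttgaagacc
Postn, second start: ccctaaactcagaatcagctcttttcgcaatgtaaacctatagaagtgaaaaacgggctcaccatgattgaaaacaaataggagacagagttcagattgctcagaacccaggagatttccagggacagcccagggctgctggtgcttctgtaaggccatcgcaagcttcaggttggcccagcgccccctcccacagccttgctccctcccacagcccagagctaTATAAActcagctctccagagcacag
Bgn: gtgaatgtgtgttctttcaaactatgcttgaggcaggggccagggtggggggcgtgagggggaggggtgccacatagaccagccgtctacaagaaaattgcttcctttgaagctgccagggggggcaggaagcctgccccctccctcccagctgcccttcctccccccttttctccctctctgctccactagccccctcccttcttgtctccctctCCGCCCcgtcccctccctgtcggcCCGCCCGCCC
Fbln2: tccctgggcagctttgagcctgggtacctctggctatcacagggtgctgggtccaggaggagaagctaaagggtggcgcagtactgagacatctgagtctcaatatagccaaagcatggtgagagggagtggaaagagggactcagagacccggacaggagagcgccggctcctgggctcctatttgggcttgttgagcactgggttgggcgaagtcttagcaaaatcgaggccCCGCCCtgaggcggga

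The Islr window held none of the 4 motifs. Ecm1 had a TATA box 27 to 22 bases before the start, a GC box 42 to 37 bases before it and an AP-1 match, on the opposite strand, 64 to 58 bases before it. The second start of Postn had a TATA box 26 to 21 bases upstream, and the first had AGGTCA on the opposite strand. Bgn held 3 GC boxes, on the opposite strand, of which the 2 nearest the start overlap. Over all 37 members with an entry, the GC box was present in 22, namely 10 of the 20 members that were higher at day 4 than at day 0, 8 of the 8 that were lower and 4 of the 9 that passed in neither direction, against 35.4% of 27025 genes with such a window. The TATA box was present in 5 of 20, 0 of 8 and 3 of 9, against 14.3% of all genes. AGGTCA was present in 2 of 20, 0 of 8 and 1 of 9, against 15.8% of all genes, and the AP-1 site only in Ecm1, against 5.16%. These are matches of letters and not measured binding sites, and the counts were not tested. The members without an entry were Dcn, Lum, Thbs1, Comp, Fn1, Eln, Fbn2, Mfap4, Mfap5, Matn2, Sparcl1, Spon1 and Spon2.

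After 3 days in RA, 20 of the 50 matrix genes were higher and 13 were lower than at day 0 (limma, adjusted p of 0.05 or below), where 51.9% of all 19938 genes passed, 23.8% of them upward and 28.1% downward. After 4 days, 26 were higher and 11 were lower, where 51.5% of all genes passed, 25.9% upward and 25.6% downward. With about 1 in 2 genes passing, calls were also counted by size. At least 2-fold changes that passed were found for 17 of the 50 members at day 3, or 34%, against 9.23% of all genes, and for 19 members at day 4, or 38%, against 10.4%. At least 4-fold changes were found for 8 members at day 3, against 2.27% of all genes, and for 13 at day 4, against 2.68%. Of those 13, 11 rose (1.76% of all genes; Dcn, Postn, Tgfbi, Emilin1, Mfap2, Mfap4, Ltbp1, Ltbp3, Sparcl1, Ecm1 and Islr) and 2 fell (0.923% of all genes; Bgn and Fn1). The median absolute log2 change of the members was 0.37 at day 3, beside 0.21 over all genes, and 0.47 at day 4, beside 0.21. The median signed change was 0.09 at day 3, beside -0.05 over all genes, and 0.19 at day 4, beside 0.00. These medians were 0.37 and 0.46 over the 35 members whose mean was 6 or more, beside -0.03 and 0.01 over all genes. They were 0.28 and 0.46 without undetectable genes, beside -0.03 and 0.01. Both filters use all 6 arrays, so they keep genes such as Islr, Postn and Dcn that were below 6 at day 0. The first also removed Matn1, which fell, and Ogn, which was higher at day 4, so these values are no check on the direction. With the arrays centred on their medians, the day 4 median was 0.30, beside 0.11 over all genes. Both comparisons rest on the same day 0 arrays. With 2 arrays a day, the arrays of days 3 and 0 did not overlap for 75.4% of all genes and 46 members. The same held for 73% and 44 members between days 4 and 0, and for 66.5% and 37 members between days 4 and 3. In total 41 members passed in at least 1 of the 3 comparisons and 9 in none, and 13 members were undetectable by the limits given above, 7 of which still passed in at least 1 comparison with changes below 2-fold.

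**Figure D1:**
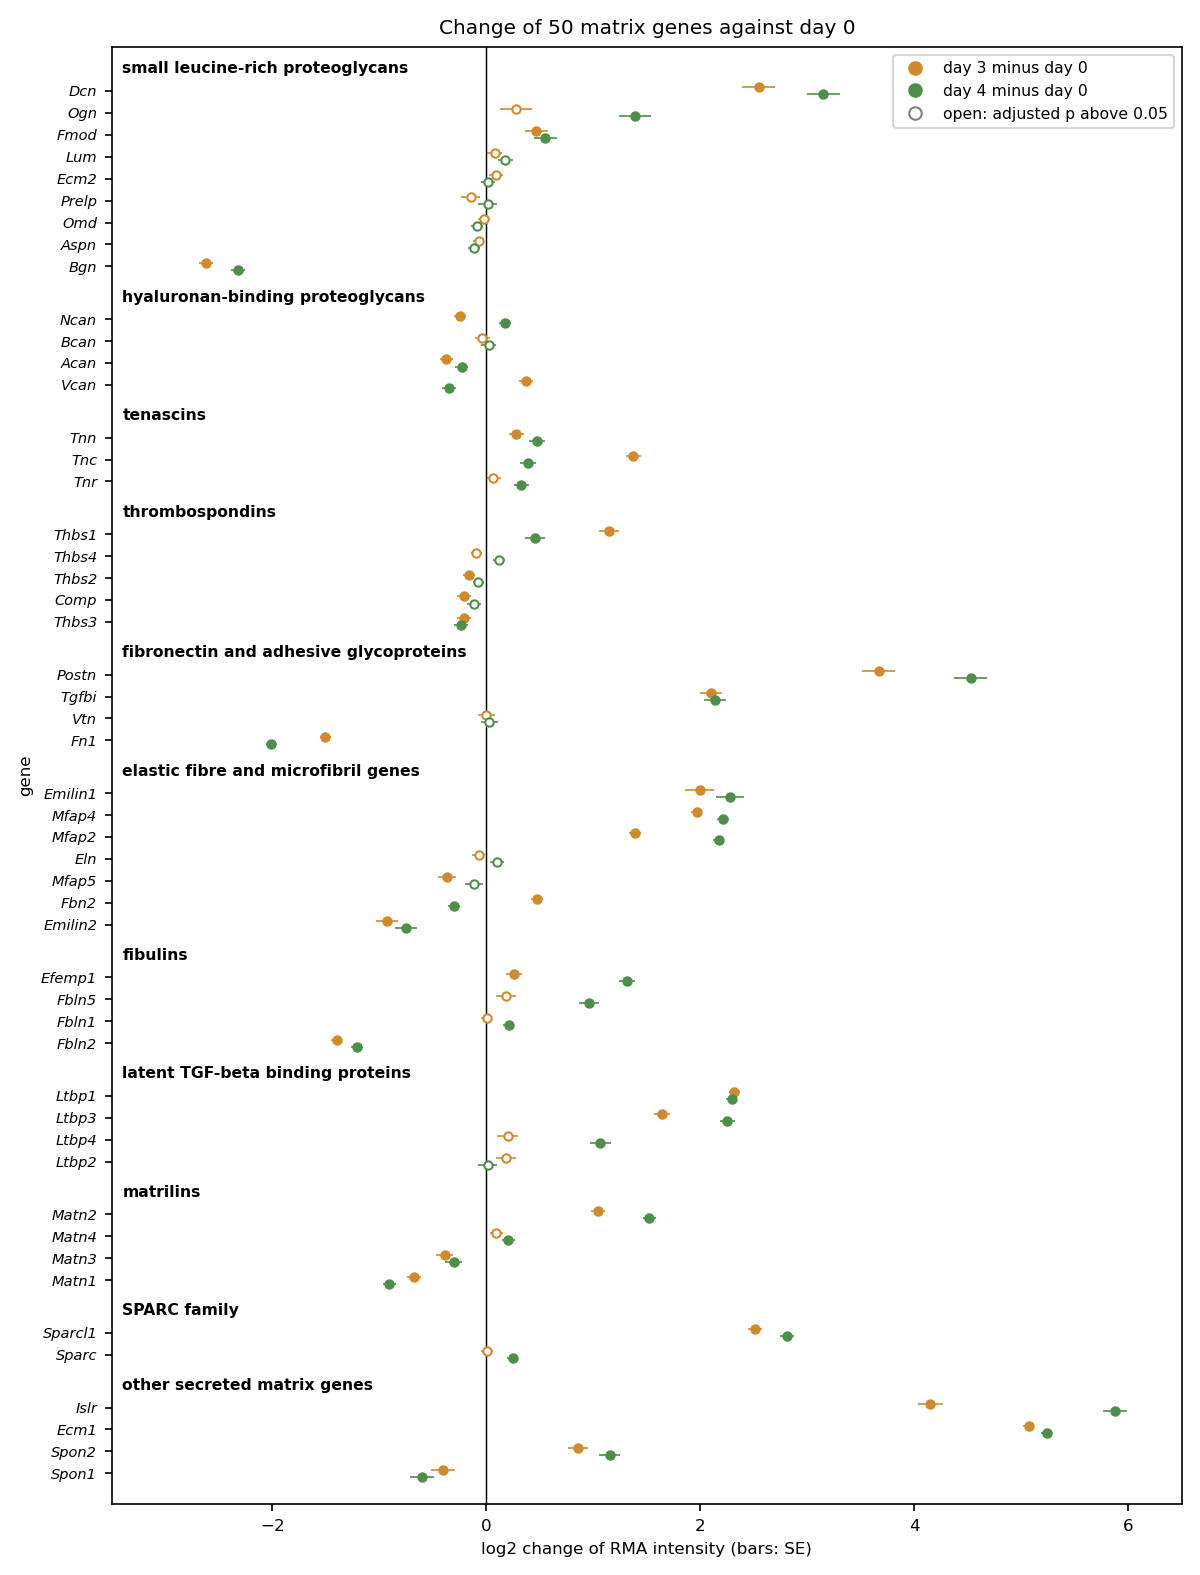
Log2 change of RMA intensity of the 50 matrix genes at day 3 (orange) and day 4 (green) against day 0, grouped by family, with bars of 1 SE from the limma fit and open circles where the adjusted p is above 0.05. The 2 farthest genes to the right are Islr, at 4.15 and 5.88, and Ecm1, at 5.07 and 5.24, and the 2 farthest to the left are Bgn, at -2.62 and -2.32, and Fn1, at -1.50 and -2.01.

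Islr and Ecm1 had the largest rises of the set. Islr (also called meflin) codes for a protein with leucine-rich repeats and an immunoglobulin domain that marks mesenchymal stromal cells. Its intensity was 5.77 and 5.40 on the day 0 arrays, 9.74 and 9.73 on day 3, and 11.48 and 11.45 on day 4. The days did not overlap, and the gap between the last 2 days was far wider than that between the arrays of either day. Islr was 17.8-fold higher at day 3 than at day 0 (log2 change 4.15, SE 0.11, adjusted p = 2.63e-07) and 58.8-fold higher at day 4 (5.88, SE 0.11, adjusted p = 7.08e-08). By size of the day 4 rise, and leaving falls aside, Islr took place 2 among all 19938 genes. It also rose between days 3 and 4, by 3.31-fold (adjusted p = 0.000248).

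Ecm1 codes for extracellular matrix protein 1, a secreted glycoprotein that binds other matrix proteins in skin and elsewhere. Its intensity was 8.03 and 8.05 at day 0, 13.13 and 13.09 on day 3, and 13.27 and 13.29 on day 4. Nearly all of its rise was present at day 3. The gene was 33.5-fold higher at day 3 (log2 change 5.07, SE 0.05, adjusted p = 1.59e-08) and 37.7-fold higher at day 4 (5.24, SE 0.05, adjusted p = 1.07e-08), at place 8 and place 11 among the rises. Of the other secreted matrix genes, Spon2, a spondin, rose at both days (1.15 at day 4, SE 0.10, adjusted p = 3.9e-05), while Spon1, the floor plate protein F-spondin, fell at both (-0.60 at day 4, SE 0.11, adjusted p = 0.00295). The call of Spon1 at day 3 was lost without replicate 2 of day 0 (adjusted p = 0.105) or replicate 1 of day 3 (adjusted p = 0.111).

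**Figure D2:**
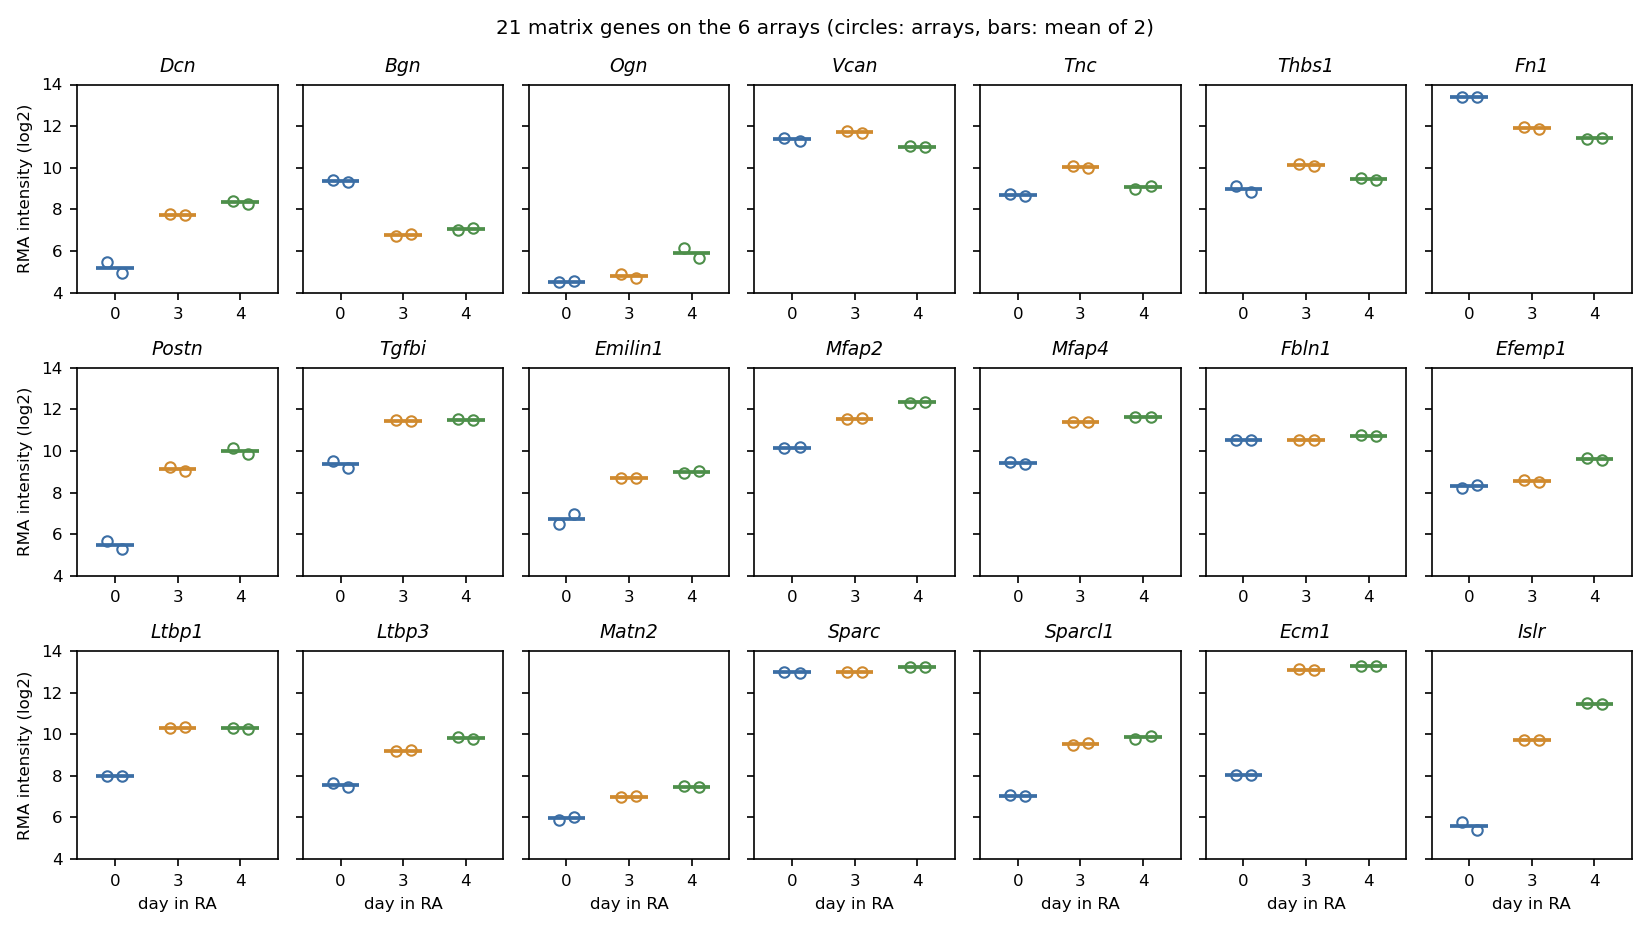
RMA intensity (log2) of 21 matrix genes on the 6 arrays, 1 panel a gene, with circles for arrays and bars for the mean of the 2 arrays of a day. Islr climbs from between 5.40 and 5.77 to above 11.4, Fn1 steps down from 13.4 to 11.4, and Tnc, Thbs1 and Vcan are highest at day 3.

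The adhesive glycoproteins moved in opposite directions. Fibronectin (Fn1), the integrin ligand on which many embryonic cells migrate, was measured at 13.41 and 13.42 at day 0, 11.94 and 11.89 on day 3, and 11.40 and 11.42 on day 4. Each day lay below the one before it without overlap. Fn1 was 2.83-fold lower at day 3 (-1.50, SE 0.05, adjusted p = 7.05e-07) and 4.03-fold lower at day 4 (-2.01, SE 0.05, adjusted p = 1.87e-07), and it fell by 0.51 on the log2 scale over the last day (adjusted p = 0.001). Periostin (Postn), a matricellular protein of fibroblasts, heart valves and periosteum, was measured at 5.68 and 5.28 at day 0, 9.25 and 9.04 on day 3, and 10.16 and 9.85 on day 4. All arrays of days 3 and 4 were far above those of day 0, although day 4 stood closer to day 3. Postn was 12.7-fold higher at day 3 (3.67, SE 0.15, adjusted p = 1.66e-06) and 23.1-fold higher at day 4 (4.53, SE 0.15, adjusted p = 5.82e-07), at place 20 among the rises. Tgfbi, whose product shares its fasciclin domains with periostin, was measured at 9.52 and 9.20 at day 0, 11.50 and 11.43 on day 3, and 11.52 and 11.48 on day 4. It had reached its day 4 level by day 3, and the arrays of these days overlapped. Tgfbi was 4.29-fold higher at day 3 (2.10, SE 0.10, adjusted p = 3.18e-06) and 4.4-fold higher at day 4 (2.14, SE 0.10, adjusted p = 2.59e-06). Vitronectin (Vtn), a plasma adhesion protein, passed in no comparison, with a day 4 change of 0.03 (95% confidence interval -0.16 to 0.22).

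Among the small leucine-rich proteoglycans, which bind collagen fibrils and set their diameter, decorin and biglycan changed in opposite directions. Decorin (Dcn) was measured at 5.46 and 4.92 at day 0, 7.76 and 7.71 on day 3, and 8.39 and 8.28 on day 4. Its day 0 arrays were the dimmest and the farthest apart, and no array of a later day reached down to them. Dcn was 5.84-fold higher at day 3 (2.55, SE 0.15, adjusted p = 9.35e-06) and 8.85-fold higher at day 4 (3.15, SE 0.15, adjusted p = 2.93e-06). Biglycan (Bgn), the closest relative of decorin, was measured at 9.42 and 9.34 at day 0, 6.70 and 6.82 on day 3, and 7.02 and 7.09 on day 4. The drop was complete by day 3, and day 4 lay slightly above day 3. Bgn was 6.13-fold lower at day 3 (-2.62, SE 0.07, adjusted p = 2.05e-07) and 5.00-fold lower at day 4 (-2.32, SE 0.07, adjusted p = 2.84e-07). Osteoglycin (Ogn), also called mimecan, was measured at 4.50 and 4.54 at day 0, 4.88 and 4.72 on day 3, and 6.16 and 5.66 on day 4. The day 4 arrays were the highest and the most spread. Ogn was 2.61-fold higher at day 4 than at day 0 (1.39, SE 0.15, adjusted p = 0.000153). Its day 3 change of 0.28 did not pass (adjusted p = 0.163), except in the fit of days 0 and 3 alone (adjusted p = 0.0202).

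The genes of this family lie next to each other in the genome in several places, and neighbours did not move alike. In the row Dcn, Lum, Kera and Epyc of the RefSeq annotation, Dcn alone passed at day 4. The change of lumican (Lum), the collagen-binding keratan sulphate proteoglycan of the cornea, was 0.18 (95% confidence interval 0.01 to 0.34, adjusted p = 0.0744), which passed with the arrays centred on their medians (0.28, adjusted p = 0.00757) or adjusted by cyclic loess (0.21, adjusted p = 0.0323). Keratocan (Kera) changed by 0.10 (-0.06 to 0.25) and epiphycan (Epyc) by 0.12 (0.00 to 0.24), and neither passed. In the row Ecm2, Aspn, Omd and Ogn, Ogn alone passed, and the day 4 changes of Ecm2, of asporin (Aspn) and of osteomodulin (Omd) were 0.02 (-0.13 to 0.17), -0.12 (-0.25 to 0.01) and -0.09 (-0.22 to 0.05). In the third row, opticin (Optc), which is no member of the list, was lower at day 4 (-0.35, adjusted p = 0.0163), prolargin (Prelp) did not pass (0.01, -0.20 to 0.22), and fibromodulin (Fmod) was higher at day 3 (0.47, adjusted p = 0.00891) and day 4 (0.55, adjusted p = 0.00398). Lum, Kera, Epyc, Ecm2, Aspn, Omd, Optc and Prelp were undetectable by the limits given above.

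**Figure D3:**
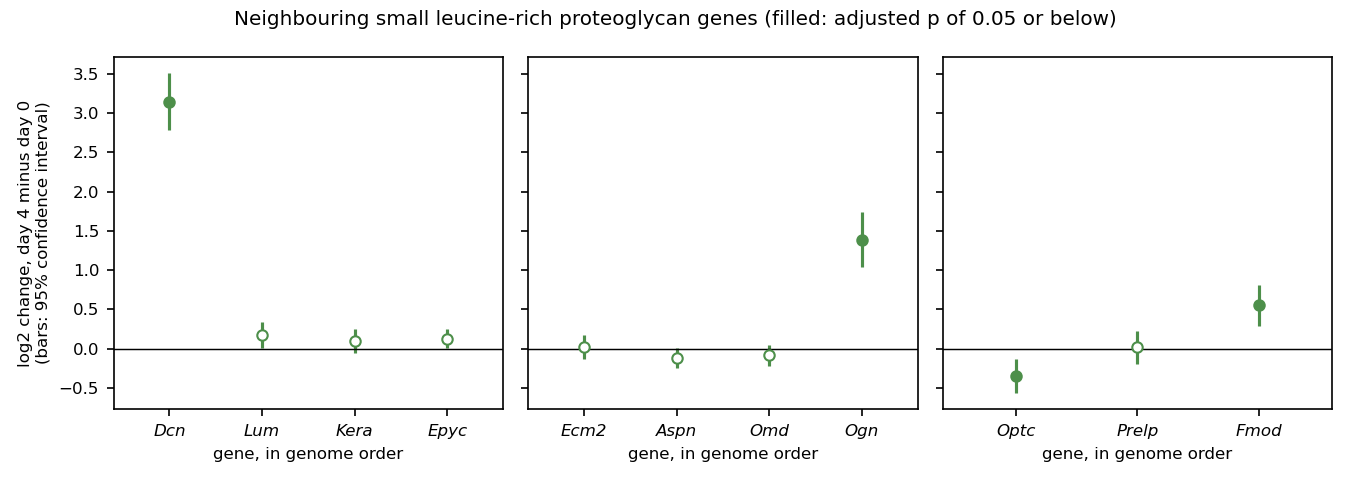
Log2 change at day 4 against day 0 for neighbouring genes of small leucine-rich proteoglycans, in genome order from left to right in each of 3 rows, with 95% confidence intervals and filled circles where the adjusted p is 0.05 or below. Dcn stands at 3.15 and Ogn at 1.39 beside neighbours between -0.12 and 0.18.

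Of the hyaluronan-binding proteoglycans, versican (Vcan), the large chondroitin sulphate proteoglycan of embryonic mesenchyme and heart, was measured at 11.41 and 11.31 at day 0, 11.77 and 11.69 on day 3, and 11.04 and 10.97 on day 4. It was highest at day 3 and lowest at day 4, without overlap. Vcan was 1.29-fold higher at day 3 (0.37, SE 0.06, adjusted p = 0.00194) and 1.27-fold lower at day 4 than at day 0 (-0.35, SE 0.06, adjusted p = 0.00249). Aggrecan (Acan), the main proteoglycan of cartilage, was undetectable, with changes of -0.37 at day 3 and -0.23 at day 4 that passed, the second not without replicate 1 of day 0 (adjusted p = 0.071) or replicate 1 of day 4 (adjusted p = 0.0788), nor with the arrays centred on their medians (-0.12, adjusted p = 0.126). Brevican (Bcan), a proteoglycan of brain, did not pass (0.02 at day 4, 95% confidence interval -0.15 to 0.19). Neurocan (Ncan), its relative in developing brain, was lower at day 3 (-0.25, adjusted p = 0.00881) and higher at day 4 (0.17, adjusted p = 0.0386). The day 3 call of Ncan was lost without replicate 1 of day 0 (-0.20) or replicate 1 of day 3 (-0.21). Its day 4 call was lost without replicate 2 of day 0 (0.13) or either day 4 array (0.19 and 0.16). This call was also lost in the fit of days 0 and 4 alone, with the change the same (0.17, adjusted p = 0.0546), and under robust moderation with a trend on intensity (adjusted p = 0.118).

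Tenascin C (Tnc), the matricellular glycoprotein of migrating and condensing mesenchyme, was measured at 8.72 and 8.63 at day 0, 10.09 and 9.998 on day 3, and 8.99 and 9.13 on day 4. It stood highest at day 3, with day 4 between the other days. Tnc was 2.59-fold higher at day 3 (1.37, SE 0.07, adjusted p = 4.54e-06) and 1.31-fold higher at day 4 than at day 0 (0.39, SE 0.07, adjusted p = 0.00277). Tenascin N (Tnn) and tenascin R (Tnr), the tenascins of bone and of brain, were undetectable. Their day 4 changes were 0.47 (adjusted p = 0.00113) and 0.32 (adjusted p = 0.00606).

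Thrombospondin 1 (Thbs1), which binds cells, heparan sulphate and latent TGF-beta, was measured at 9.12 and 8.86 at day 0, 10.19 and 10.09 on day 3, and 9.49 and 9.40 on day 4. As with Tnc, day 3 was the highest and day 4 lay between. Thbs1 was 2.21-fold higher at day 3 (1.15, SE 0.09, adjusted p = 4.11e-05) and 1.37-fold higher at day 4 than at day 0 (0.46, SE 0.09, adjusted p = 0.00458). The other thrombospondins changed little. Thbs3 was lower at both days (-0.21 and -0.24), Thbs2 and Comp, the cartilage oligomeric matrix protein, were lower at day 3 alone (-0.16 and -0.21), and Thbs4 passed in neither comparison with day 0. The day 4 change of Thbs4 (0.12, adjusted p = 0.111) passed with the arrays centred on their medians (0.23, adjusted p = 0.0148). Both calls of Thbs3 were lost without replicate 1 of day 0, the day 3 call also without either day 3 array, and the day 4 call also without replicate 2 of day 4 and with median centring (-0.13, adjusted p = 0.172). The day 3 calls of Thbs2 and Comp were lost without any one of the day 0 and day 3 arrays, and Thbs2 was undetectable.

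Genes of microfibrils and of elastic fibre assembly held 3 of the 11 members that were at least 4-fold higher at day 4. Mfap2 (MAGP-1), a small glycoprotein bound to fibrillin, was measured at 10.13 and 10.20 at day 0, 11.54 and 11.58 on day 3, and 12.33 and 12.34 on day 4. It rose at each step, and no days overlapped. Mfap2 was 2.62-fold higher at day 3 (1.39, SE 0.05, adjusted p = 1.26e-06) and 4.5-fold higher at day 4 (2.17, SE 0.05, adjusted p = 1.76e-07). Mfap4, a fibrinogen-related protein of elastic fibres, was measured at 9.45 and 9.39 at day 0, 11.39 and 11.39 on day 3, and 11.64 and 11.63 on day 4. Most of this rise was present at day 3. Mfap4 was 3.91-fold higher at day 3 (1.97, SE 0.05, adjusted p = 2.54e-07) and 4.63-fold higher at day 4 (2.21, SE 0.05, adjusted p = 1.39e-07). Emilin1, an elastin-associated glycoprotein that also restrains TGF-beta precursor processing, was measured at 6.5 and 6.95 at day 0, 8.72 and 8.71 on day 3, and 8.96 and 9.04 on day 4. Its day 0 arrays were apart from each other and still far below the rest. Emilin1 was 3.98-fold higher at day 3 (1.99, SE 0.13, adjusted p = 1.5e-05) and 4.85-fold higher at day 4 (2.28, SE 0.13, adjusted p = 6.7e-06).

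The remaining genes of this group did not share that course. Elastin (Eln) itself, the rubber-like core protein, did not pass at day 3 (-0.07, 95% confidence interval -0.23 to 0.08) or day 4 (0.10, -0.06 to 0.25), although the day 4 change passed with the arrays centred on their medians (0.20, adjusted p = 0.0289). Fibrillin 2 (Fbn2), the fibrillin of embryonic microfibrils, was higher at day 3 (0.48, adjusted p = 0.000231) and lower at day 4 than at day 0 (-0.30, adjusted p = 0.00224), the course that Vcan also took. Emilin2 was lower at both days (-0.93 and -0.75), and Mfap5 was undetectable and lower at day 3 alone (-0.37, adjusted p = 0.00856), a call lost without replicate 2 of day 3 (adjusted p = 0.0562).

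The fibulins, calcium-binding glycoproteins that link microfibrils, elastin and basement membranes, split. Fibulin 1 (Fbln1) was measured at 10.53 and 10.55 at day 0, 10.54 and 10.53 on day 3, and 10.75 and 10.73 on day 4. Days 0 and 3 overlapped, and day 4 lay just above. Fbln1 was 1.16-fold higher at day 4 than at day 0 (0.21, SE 0.05, adjusted p = 0.0102). Efemp1 (fibulin 3) was measured at 8.23 and 8.36 at day 0, 8.59 and 8.52 on day 3, and 9.68 and 9.54 on day 4. The step between days 3 and 4 was the larger one. Efemp1 was 2.49-fold higher at day 4 (1.32, SE 0.07, adjusted p = 5.3e-06), whereas its day 3 change of 0.26 (adjusted p = 0.0206) was lost without replicate 1 of day 0 (adjusted p = 0.113) or replicate 1 of day 3 (adjusted p = 0.105). Fbln5, needed for elastic fibre assembly, did not pass at day 3 (0.18, adjusted p = 0.152) and was 1.95-fold higher at day 4 (0.96, adjusted p = 9.16e-05). Fbln2, a fibulin of heart valve and basement membrane whose promoter is shown above, was 2.64-fold lower at day 3 (-1.40, SE 0.05, adjusted p = 1.24e-06) and 2.31-fold lower at day 4 (-1.21, SE 0.05, adjusted p = 2.06e-06).

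Some latent TGF-beta binding proteins anchor inactive TGF-beta to microfibrils. Of the genes of this family, Ltbp1, Ltbp3 and Ltbp4 were higher at day 4 than at day 0. Ltbp2 did not pass (0.01, 95% confidence interval -0.20 to 0.22). Ltbp1 was measured at 8.0 and 8.0 at day 0, 10.30 and 10.33 on day 3, and 10.31 and 10.27 on day 4. Days 3 and 4 overlapped and both lay well above day 0. Ltbp1 was 4.98-fold higher at day 3 (2.32, SE 0.05, adjusted p = 1.22e-07) and 4.9-fold higher at day 4 (2.29, SE 0.05, adjusted p = 1.17e-07). Ltbp3 was measured at 7.64 and 7.49 at day 0, 9.17 and 9.24 on day 3, and 9.87 and 9.76 on day 4. It rose again after day 3, without overlap. Ltbp3 was 3.13-fold higher at day 3 (1.64, SE 0.07, adjusted p = 2.17e-06) and 4.77-fold higher at day 4 (2.25, SE 0.07, adjusted p = 4.88e-07). Ltbp4 was 2.09-fold higher at day 4 (1.06, SE 0.10, adjusted p = 7.35e-05). Its day 3 change of 0.20 did not pass (adjusted p = 0.136), except in the fit of days 0 and 3 alone (adjusted p = 0.0219).

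The genes of the TGF-beta ligands were read beside them. Tgfb3 was measured at 7.34 and 7.20 at day 0, 11.67 and 11.57 on day 3, and 12.60 and 12.53 on day 4. It was 39.2-fold higher at day 4 than at day 0 (5.29, SE 0.07, adjusted p = 3.12e-08). Tgfb1 was measured at 10.68 and 10.74 at day 0, 8.89 and 8.93 on day 3, and 8.93 and 8.92 on day 4. It was 3.45-fold lower at day 4 (-1.79, SE 0.05, adjusted p = 3.36e-07). Tgfb2 was measured at 11.77 and 11.72 at day 0, 11.64 and 11.72 on day 3, and 12.01 and 11.92 on day 4. It was 1.17-fold higher at day 4 (0.22, SE 0.06, adjusted p = 0.0171). Between days 3 and 4, Tgfb2, Tgfb3, Ltbp3 and Ltbp4 were higher at day 4, and Tgfb1, Ltbp1 and Ltbp2 did not pass.

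**Figure D4:**
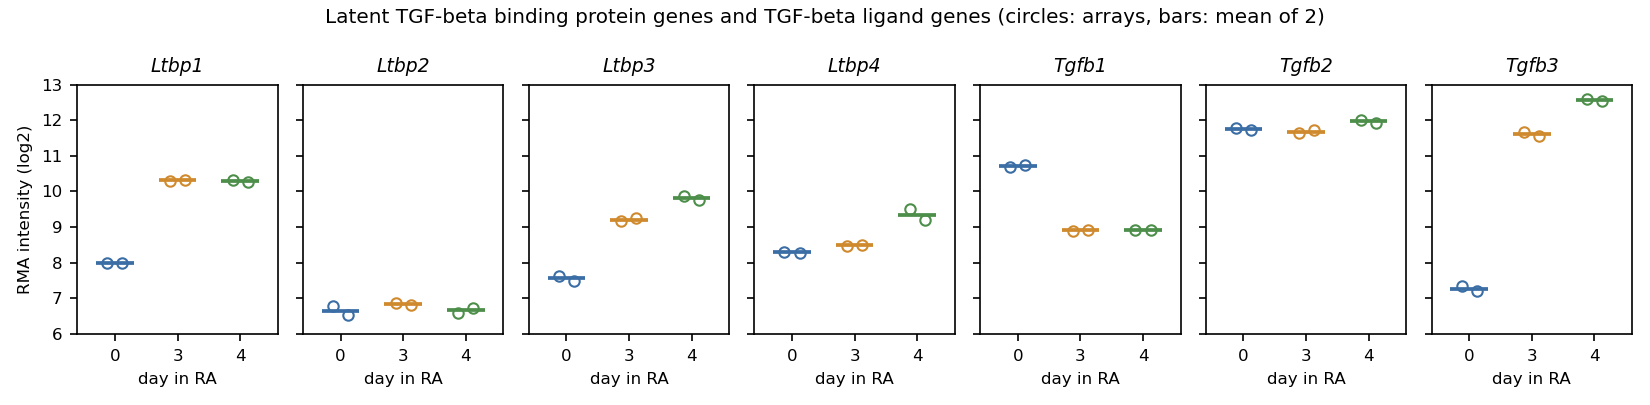
RMA intensity (log2) of the 4 latent TGF-beta binding protein genes and of the 3 TGF-beta ligand genes by day in RA, with circles for arrays and bars for the mean of 2. Ltbp1 and Ltbp3 stand between 7.49 and 8.0 at day 0 and at 9.76 or above at day 4, Tgfb3 moves from 7.34 or below to 12.53 or above, and Tgfb1 from 10.68 or above to 8.93 or below.

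Among the matrilins, adaptor proteins with von Willebrand factor A domains, Matn2, the form found in many tissues outside cartilage, was measured at 5.89 and 6.03 at day 0, 6.99 and 7.01 on day 3, and 7.49 and 7.47 on day 4. Each day lay above the one before it. Matn2 was 2.06-fold higher at day 3 (1.04, SE 0.06, adjusted p = 9.12e-06) and 2.88-fold higher at day 4 (1.52, SE 0.06, adjusted p = 1.37e-06). Matn1, the cartilage matrilin, was lower at both days (-0.68 and -0.91, adjusted p = 1.72e-05 at day 4). Matn3 and Matn4 were undetectable, with day 4 changes of -0.31 and 0.20. The call of Matn3 was lost without replicate 1 of day 0 or replicate 2 of day 4 and with median centring (-0.20, adjusted p = 0.0668), and that of Matn4 without either day 0 array or replicate 2 of day 4, and under robust moderation with such a trend (adjusted p = 0.0638).

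SPARC (osteonectin), a collagen-binding matricellular protein made in large amounts by parietal endoderm and mesenchyme, differed little between days. Sparc was measured at 13.002 and 12.94 at day 0, 12.97 and 12.98 on day 3, and 13.23 and 13.21 on day 4. Days 0 and 3 overlapped and day 4 was slightly above them. Sparc was 1.19-fold higher at day 4 than at day 0 (0.25, SE 0.05, adjusted p = 0.00562). Its relative Sparcl1 (hevin) was measured at 7.06 and 7.01 at day 0, 9.50 and 9.58 on day 3, and 9.78 and 9.91 on day 4. Its later arrays were all far above those of day 0. Sparcl1 was 5.68-fold higher at day 3 (2.51, SE 0.06, adjusted p = 2.13e-07) and 6.99-fold higher at day 4 (2.81, SE 0.06, adjusted p = 1.23e-07).

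Between days 3 and 4, 20 members were higher and 6 were lower, where 28.1% of all genes passed, 15.8% upward and 12.2% downward. Only Islr (1.73, SE 0.11, adjusted p = 0.000248), Ogn (1.11, SE 0.15, adjusted p = 0.00255) and Efemp1 (1.06, SE 0.07, adjusted p = 0.000292) changed by at least 2-fold, 3 of 50 members against 0.767% of all genes in either direction and 0.376% upward. Smaller rises were those of Ltbp4 (0.86), Postn (0.86), Fbln5 (0.78), Mfap2 (0.78), Ltbp3 (0.61), Dcn (0.60), Matn2 (0.48) and Ncan (0.42). The calls of Ecm1 (0.17) and Fbln2 (0.19) in this comparison were lost in the fit of days 3 and 4 alone (adjusted p = 0.0637 and 0.0537). They were also lost when any 1 array of these days was left out. The 6 that were lower were Tnc (-0.98, SE 0.07, adjusted p = 0.000352), Fbn2 (-0.78, SE 0.05, adjusted p = 0.000292), Vcan (-0.72, SE 0.06, adjusted p = 0.000602), Thbs1 (-0.69, SE 0.09, adjusted p = 0.00264), Fn1 (-0.51) and Matn1 (-0.23). The call of Matn1 was lost with the arrays centred on their medians (-0.10, adjusted p = 0.269) and under robust moderation with a trend on intensity (adjusted p = 0.0685). It was also lost without either day 3 array or replicate 2 of day 4. The other 9 rises were between 0.17 and 0.30, those of Bgn, Tnr, Thbs4, Mfap4, Fbln1, Fbln2, Sparc, Sparcl1 and Ecm1, and each was lost in at least 1 fit without a single array. When any 1 array of day 3 or day 4 was left out, fewer members were called higher, and so were fewer of all genes. With the arrays centred on their medians, 33 members were higher and 5 lower, beside 8829 and 1381 of all genes. The rise of Dcn over the last day was lost without any one of the day 3 and day 4 arrays (adjusted p between 0.0853 and 0.117).

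**Figure D5:**
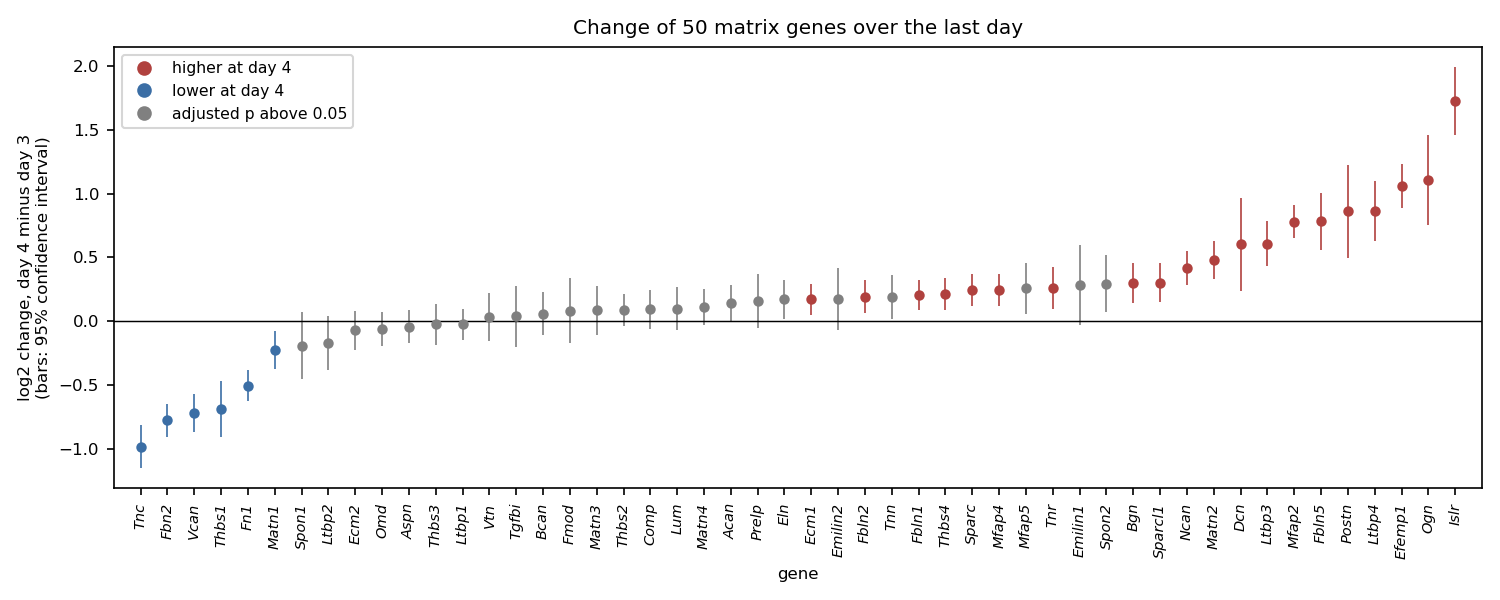
Log2 change between day 3 and day 4 of the 50 matrix genes in order of size, with 95% confidence intervals, in red where higher at day 4, in blue where lower and in grey where the adjusted p is above 0.05. Tnc, at -0.98, is at the left end and Islr, at 1.73, at the right end, and only 3 genes pass 1.

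By the calls at day 3 against day 0 and at day 4 against day 3, which share the day 3 arrays, 10 members rose and rose again, namely Dcn, Postn, Mfap2, Mfap4, Efemp1, Ltbp3, Matn2, Sparcl1, Ecm1 and Islr. For 6 a rise by day 3 was not followed by a change that passed (Fmod, Tnn, Tgfbi, Emilin1, Ltbp1 and Spon2). The last-day rise of Spon2 was 0.29 (adjusted p = 0.0588) and passed under several alternatives, among them centring on medians (adjusted p = 0.00656) and the filters on dim genes (adjusted p = 0.0434 and 0.0455). That of Emilin1 was 0.28 (adjusted p = 0.157) and passed when only days 3 and 4 were fitted (adjusted p = 0.0185) or with centring (adjusted p = 0.0253). The day 3 rise of Tnn was lost without replicate 1 of day 0 (adjusted p = 0.085) or replicate 2 of day 3 (adjusted p = 0.0921). A rise followed by a fall was seen for 4, Vcan, Tnc, Thbs1 and Fbn2, of which Vcan and Fbn2 ended below and Tnc and Thbs1 above their day 0 level. Bgn, Ncan and Fbln2 fell and then rose, Fn1 and Matn1 fell in both steps, and 8 fell by day 3 with no later change that passed. For 7 the rise passed in the last step alone (Ogn, Tnr, Thbs4, Fbln1, Fbln5, Ltbp4 and Sparc).

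Other matrix genes, from a list of 49 measured glycoproteins and proteoglycans outside the set, were higher at day 4 than at day 0 in 26 cases and lower in 10, where 25.9% of all genes were higher and 25.6% lower. The largest rises were those of Ccn4 (3.76, SE 0.07, adjusted p = 6.35e-08), a Wnt-induced matricellular protein, Edil3 (3.06, SE 0.07, adjusted p = 1.38e-07), an integrin ligand of endothelium, and Spock3 (2.32, SE 0.08, adjusted p = 6.64e-07), a testican. The largest falls were those of Reln (-1.57, SE 0.07, adjusted p = 2.55e-06), which codes for reelin, Ccn1 (-1.45, SE 0.10, adjusted p = 1.3e-05), a target of Yap signalling, and Hapln4 (-1.33, SE 0.05, adjusted p = 9.76e-07), a link protein that ties proteoglycans to hyaluronan. Of 26 genes of hyaluronan and sulphated sugar chain synthesis, which finish the proteoglycans of the set, 14 were higher and 6 lower, beside the same shares of all genes. Papss2, which makes the sulphate donor, rose in the last day (mean 7.91 at day 0, 7.72 at day 3 and 10.57 at day 4, 2.66 against day 0, adjusted p = 6.09e-07), and the sulphotransferases Chst11 (1.38) and Ust (1.33) were also higher. Has2, the main hyaluronan synthase of the embryo, was lower at day 3 and day 4 (mean 11.32, 9.79 and 9.15, -2.18 at day 4, adjusted p = 2.54e-06), as were Chst7 (-1.19) and Csgalnact1 (-1.15), which start or sulphate chondroitin chains.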

How the data were processed

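Affymetrix Mouse Gene 1.0 ST arrays of R1 EBs, 2 a day at days 0, 3 and 4, were analysed. The deposited values are log2 intensities, which the authors made by RMA in Partek, with background correction, quantile normalization and summary of each probe set. The methods state no Partek version for the arrays. As quantile normalization makes the arrays alike, changes are relative to the other transcripts, and the number of arrays limits the precision. Of 35557 probe sets, 21789 had 1 gene symbol in the platform annotation, and 19938 genes remained once the brightest probe set was kept for each. Probe sets with several symbols (1621) or none given (12147) were left out.

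The 3 comparisons were tested by limma 3.58.1 (lmFit, then eBayes) under R 4.3.3, with all 6 arrays in 1 fit, a mean for each day, two-sided tests and Benjamini-Hochberg adjustment over all 19938 genes, and an adjusted p of 0.05 or below was a call. The 3 residual degrees of freedom were joined by 4.07 prior ones. Groups and replicate numbers came from the sample titles. Replicate deviations over all genes correlated little between days (0.03 to 0.08), so no block was used in the main fit. Such values cannot exclude that the replicate numbers mark paired cultures. Members given on every array were those that passed with an absolute log2 change of 2 or more in any comparison, or of 1 or more between days 3 and 4, and the member of each family with the highest mean, and the TGF-beta ligands were given likewise. From the other matrix lists the 3 largest rises and 3 largest falls at day 4 were named with their changes. Other members were named after their values were seen. The members and lists were chosen with earlier results of these data known. Alternatives were other scalings, moderation, filters on dim genes, choices of probe set, a replicate block, fits of 2 days and fits without each array.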

Additional observations from a re-analysis of the deposited data

How the results depend on the processing

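As no member had more than 1 probe set, the choices of probe set could alter a member's adjusted p only through the other genes. Counts of members higher or lower against day 0 stayed within 1.5 times the reported count under the alternatives, except for those lower at day 3. These were 8 of 35 members instead of 13 of 50 when only genes whose mean was 6 or more were tested. Of all genes, 5018 of 13684 were lower under that filter, against 5596 of 19938 without it. The members' count also fell by more than 1.5 times without replicate 1 of day 3, where fewer of all genes were lower too. For members higher at day 4 than at day 3, the count was 33 with the arrays centred on their medians, and between 10 and 21 with single arrays left out. Centring also moved the median change of all genes to 0.11 at day 4 against day 0 and 0.18 between days 3 and 4, and the members' medians to 0.30 and 0.30, since it shifts each gene of an array alike. All genes then split into 7132 higher and 3915 lower at day 4 against day 0, and 8829 and 1381 between days 3 and 4, compared with 5154 and 5106, and 3156 and 2437. The members' median at day 3 was 0.37 over genes whose mean was 6 or more and 0.28 without undetectable genes. At day 4 it was 0.46 under both filters. All genes then had medians of -0.03 at day 3 and 0.01 at day 4 under both. Each filter removes members dim over the 6 arrays together and keeps members dim at day 0 alone. Changes near 0 turned sign: that of Fbln1 at day 3 to -0.021 with centring (-0.0074 to 0.013 with single arrays left out, with -0.0074 without replicate 1 of day 0 and -0.0014 without replicate 1 of day 3), that of Sparc at day 3 to -0.019 with centring (-0.026 to 0.036 with single arrays left out, lowest without replicate 2 of day 0), that of Tgfbi between days 3 and 4 to -0.001 without replicate 2 of day 3 (up to 0.073 without replicate 1 of day 3), and that of Ltbp1 between days 3 and 4 to 0.11 with centring. None of these passed the test under either setting. With the replicate number as a block, 20 members were higher and 13 lower at day 3, and 25 and 11 at day 4. Between days 3 and 4 they were 21 and 6. The members' medians were 0.09, 0.19 and 0.17. All genes split into 4758 higher and 5601 lower, 5143 and 5108, and 3101 and 2368 in the same order. Under this block the last-day rises of Ecm1 (adjusted p = 0.0614) and Fbln2 (adjusted p = 0.0553) and the day 4 change of Ncan (adjusted p = 0.0547) were lost, and those of Tnn, Mfap5 and Spon2 over the last day were gained. The last-day rises of Ecm1 and Fbln2 were also lost in the fit of days 3 and 4 alone. They were lost as well when any 1 array of these days was left out. Fits without an array assume that the remaining array of that day varies like the others. For a comparison of the other 2 days, such a fit repeats the fit of those days alone. No change of 2-fold or more of a named member against day 0 lost its call under any alternative in which that member was tested. Ogn, whose mean over the 6 arrays was 5.08, was not tested when only genes whose mean was 6 or more were kept.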
